A study of Mus musculus with 36 samples.

Results

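The 40 genes described here encode the aminoacyl-tRNA synthetases of mouse liver and the scaffold proteins Aimp1 and Aimp2. They were selected by symbol from the 38283 genes of the count table, as the rows named with a letter for an amino acid followed by ars, ars1 or ars2, together with Eprs, Farsa, Farsb, Tarsl2, Aimp1 and Aimp2. The rule uses symbols and no expression values, although it was set with earlier results of these data known. Of the 38 synthetase genes, 19 encode cytosolic enzymes, 17 encode mitochondrial enzymes, and Gars and Kars encode enzymes that serve both compartments.

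Aminoacyl-tRNA synthetases join each amino acid to its transfer RNA, and the ribosome reads the genetic code through these charged tRNAs. The cytosol and the mitochondrion translate separately, so most amino acids have a cytosolic enzyme and a mitochondrial enzyme encoded by different nuclear genes. Several cytosolic enzymes are held together with scaffold proteins in the multisynthetase complex. The liver exports much of what it translates as plasma protein, and protein synthesis in hepatocytes responds to amino acids and insulin after a meal. When amino acids are scarce, the kinase Gcn2 senses uncharged tRNA and translation of the transcription factor ATF4 increases, and genes for cytosolic synthetases are among the known ATF4 targets.

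Liver RNA was sequenced from 36 male mice on a C57Bl/6J background, all 16 weeks old and kept on chow. Wild-type littermates and heterozygous WT/Y657* mice, which carry the Y657* truncation of Pik3r1 (the regulatory subunit of phosphoinositide 3-kinase) on 1 knocked-in allele in every tissue, were sampled fed, after a 16 h fast, or after a 16 h fast and 6 h of refeeding. Each of the 6 groups held 6 mice. Each library came from a different mouse, so a fed mouse was never sampled again when fasted.

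Library totals ranged from 8839488 to 19542775 counts. Pik3r1 itself ranged from 82.4 to 158 CPM in wild-type mice and from 74.5 to 182 CPM in WT/Y657* mice, and since these values sum both alleles they do not check the genotype labels. CPM denotes the count relative to the TMM-scaled library total, in the usual unit of that name. The hepatocyte markers (Alb, Ttr, Apoa1, Cps1, Cyp2e1, Ass1) summed to between 49490 and 96260 CPM in each mouse. The mitochondrial ribosomal RNA gene mt-Rnr2 was listed at 0 in 5 libraries (2 of fasted WT/Y657*, 2 of refed WT/Y657* and 1 of refed wild-type mice), and calls that change without them are given below. Fasted and refed mice belonged to a lower and a higher series of mouse numbers with 3 mice of each genotype from each, whereas the fed mice carried numbers between the series, so feeding state and number series cannot be told apart in comparisons with fed mice. Per the paper, tissue was taken before the overnight fast, at its end, or once mice were refed. Clock hours were not given, so time of day cannot be told apart from feeding state in any comparison of feeding states.

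Lars2, the mitochondrial leucyl enzyme (chromosome 9, 123366927 to 123462666, GRCm38), stood apart from all other members and its counts are uncertain. It took between 24434 and 954256 counts per library, or 0.196% to 5.24% of the total. The level differed widely within most groups, from 1993 to 57400 CPM in fed wild-type mice and from 2547 to 35440 in refed WT/Y657* mice, and was narrowest in fed WT/Y657* mice (1911 to 7018). Its reference transcript shares 22 identical 31-base stretches with the antisense RNA gene Gm15564 on chromosome 16 and 26 with the unclassified gene AA474408 on chromosome 7. These stretches lie between bases 3172 and 3329 of the 3894-base transcript, in exon 21 of 21 and past the last coding base at 2905, that is, in the 3′ UTR. Across the 36 libraries Lars2 had 9.56 to 12.6 times the counts of Gm15564, and the plot of both genes shows the libraries along a line. Which gene the reads came from was not tested. Lars2 was not called in any comparison by the quasi-likelihood test of edgeR, whose p-values were adjusted over all genes tested, and medians over mitochondrial enzymes are given with and without it where they differ.

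**Figure D1:**
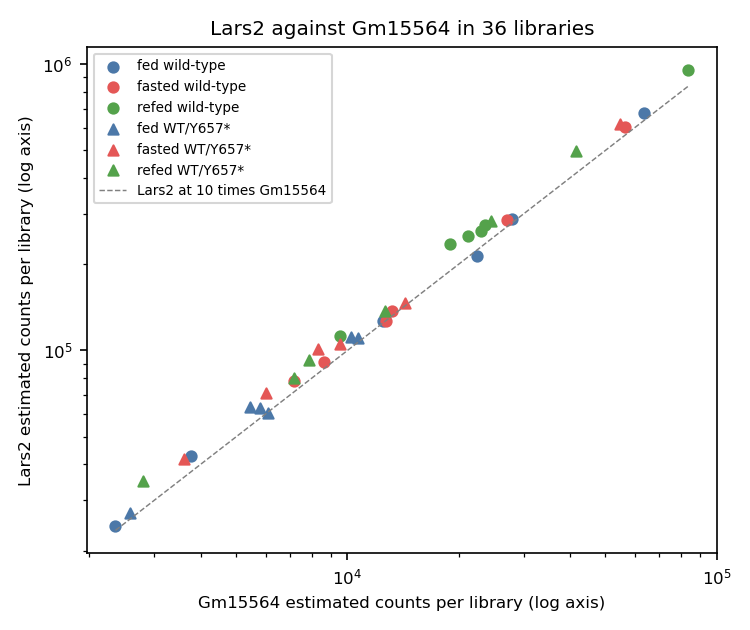
Estimated counts per library of Lars2 (vertical log axis) against Gm15564 (horizontal log axis), 1 point per mouse, coloured by feeding state with circles for wild-type and triangles for WT/Y657* mice. The dashed line marks Lars2 at 10 times Gm15564. Both genes range together over all 36 libraries, with a ratio of 9.56 to 12.6.

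Short sequence matches in the promoters are shown first as a description of the motifs known for factors that act on synthetase genes. RefSeq promoters (GRCm38.p6, 250 bases before to 50 after each start site) were given for 30 of the 40 genes, as 32 promoters. The core of the amino acid response element to which ATF4 binds, searched on both strands as TGATGNAA, occurred in 5 of the 32 promoters (15.6%) and in 1304 of all 32851 promoters (3.97%). By gene, it occurred in 4 of 12 cytosolic genes (Aars, Iars, Tars and Yars), 1 of 2 dual genes (Gars) and 0 of 14 mitochondrial genes, against 4.51% of all 27025 genes. The matches upstream of the start sites of Gars and Tars are printed 5′ to 3′ on the strand of the gene, with capitals marking the match. Each is the reverse complement of the core, since it lies on the opposite strand.
Gars, chr6:55037960-55037989, plus strand: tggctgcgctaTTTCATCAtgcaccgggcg
Tars, chr15:11399659-11399684, minus strand: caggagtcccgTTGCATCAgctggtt

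These matches begin 30 and 15 bases before the start sites of Gars and Tars. Aars, Iars and Yars have a match just past the start site. The E-box CACGTG, a palindrome bound by Myc and by other basic helix-loop-helix factors, occurred in 5 of 32 promoters (15.6%) against 7.15% of all promoters. Its upstream matches, in capitals below, belong to 3 cytosolic genes.
Aars, chr8:111033685-111033712, plus strand: gtcaaccctgtCACGTGacactccatgt
Farsb, chr1:78488920-78488947, minus strand: tagacaggcatCACGTGagacagcccaa
Iars, chr13:49682050-49682077, plus strand: accaatcgccaCACGTGttgtttgtagg

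Tars and Ears2 held the E-box past the start site. The matches describe these windows only, and binding was not measured. Aars, Iars, Tars and Yars, which hold the response element core, all fell on fasting in both genotypes as described below, and Gars, which also holds it, was not called on fasting in either. Of the 9 cytosolic and dual genes whose promoters lack the core, 7 fell with the wild-type genotype and 5 did in the mutants, so falls were common without it, and the difference was not tested.

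Levels of the enzymes in fed wild-type livers differed widely. Per kilobase of annotated exon, the 21 cytosolic and dual enzymes had a median of 12.3 CPM per kb and ranged from 2.41 (Tarsl2) to 35.5 (Aars). The mitochondrial enzymes without Lars2 had a median of 4.46 and ranged from 0.344 (Mars2) to 9.02 (Iars2). Aars, the cytosolic alanyl enzyme, was at 35.5 ± 2.58 CPM per kb (SD, n = 6), and Nars, the cytosolic asparaginyl enzyme, was at 33.7 ± 2.92. Tars, the cytosolic threonyl enzyme, followed at 30.4 ± 3.6. Neighbours among these 3 differed by less than the larger of their SDs, whereas Dars, the next, was at 22.1 ± 1.28. At the other end Mars2, the mitochondrial methionyl enzyme, had 0.344 ± 0.0662 CPM per kb, below Wars2 at 0.811 ± 0.151 and Pars2 at 0.973 ± 0.249. Annotated exon length includes rare transcript forms (11294 bases for Mars2), which lowers a value per kilobase.

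A 16 h fast lowered most cytosolic synthetase transcripts in wild-type liver. Of the 40 members, 24 fell and 0 rose at an adjusted p under 0.05, while 17.5% of the 13945 genes tested fell and 14.5% rose. Among the cytosolic and dual enzymes 17 of 21 fell, with a median log2 fold change of -0.36 over all 21. Among the mitochondrial enzymes 6 of 17 fell, with a median of -0.22, and the median of all genes tested was 0.01. The largest falls were in Wars, Iars and Cars, the cytosolic tryptophanyl, isoleucyl and cysteinyl enzymes. Changes in bulk tissue do not tell less RNA per cell from fewer cells of a type.

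Wars (chromosome 12, 108860030 to 108894174) had a median of 23.9 CPM in fed wild-type mice (18.2 to 34) and of 13.7 after the fast (9.95 to 15.1). Its groups did not overlap, and the log2 fold change was -0.94, with a standard error (SE) of 0.13 and an adjusted p of 4.3e-07 (edgeR). Yars (chromosome 4, 129189760 to 129219607), the tyrosyl enzyme, went from a median of 42.3 CPM (38.9 to 48.4) to 28.3 (26.6 to 30), a log2 fold change of -0.61 (SE 0.079, adjusted p = 1.4e-07, edgeR). All 6 fasted mice again lay below all 6 fed mice.

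Nars went from a median of 146.7 CPM (131.8 to 165.3) to 101 (92.6 to 106.5), with a log2 fold change of -0.55 (SE 0.075). Tars2 (chromosome 3, 95739976 to 95760206), the mitochondrial threonyl enzyme, was the exception among the mitochondrial genes in the size of its change. Its level went from a median of 31.5 CPM (28.6 to 33.6) to 20.2 (17.8 to 24.1), a log2 fold change of -0.61 (SE 0.082, adjusted p = 2.4e-07, edgeR), with no overlap. Smaller falls among the mitochondrial enzymes included those of Ears2 (-0.43), Cars2 (-0.37), Yars2 (-0.27) and Aars2 (-0.24).

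The members that did not pass the test in fasted wild-type mice were not all close to 0. Wars2, the mitochondrial partner of Wars, had a log2 fold change of 0.27 (SE 0.14, adjusted p = 0.152), and Iars2, the partner of Iars, had 0.16 (SE 0.067, adjusted p = 0.065, edgeR). Tarsl2, a cytosolic threonyl enzyme closely related to Tars, was at a median of 16.2 CPM fed and 17.7 fasted (log2 fold change 0.07). Gars, Lars and Sars were between -0.14 and -0.18. Of the scaffold genes, Aimp2 fell from a median of 9.24 CPM (7.42 to 9.3) to 6.76 (5.24 to 7.18), a log2 fold change of -0.41 (adjusted p = 0.00356, edgeR). Aimp1 did not pass the test, with medians of 19.1 and 21.7 CPM (log2 fold change 0.14). Within the multisynthetase complex 8 of the 10 genes selected here fell, and outside it 10 of the other 13 cytosolic and dual enzymes fell. Eef1e1 was not selected by the symbol rule and is counted below with the partners of tRNA charging, so the 10 leave it out. It did not pass the test in fasted wild-type mice (log2 fold change -0.20, adjusted p = 0.458, edgeR).

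Members of the multisynthetase complex did not fall to the same extent. Iars and the bifunctional glutamyl-prolyl enzyme Eprs had the largest changes on fasting in wild-type mice (-0.76 and -0.56), followed by Aimp2 (-0.41) and the arginyl enzyme Rars (-0.38). Mars, Kars, Dars (aspartyl) and Qars (glutaminyl) fell less, with log2 fold changes between -0.24 and -0.20. Lars (-0.18, adjusted p = 0.105) and Aimp1 did not pass the test. In WT/Y657* mice 6 of the 10 fell, with Eprs at -0.50, Kars at -0.40 and Rars at -0.35, whereas Qars (-0.05) and Aimp2 (-0.05) did not pass. Eef1e1, which is not among the 10, rose on fasting in WT/Y657* mice (0.48, adjusted p = 0.0434, edgeR).

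**Figure D2:**
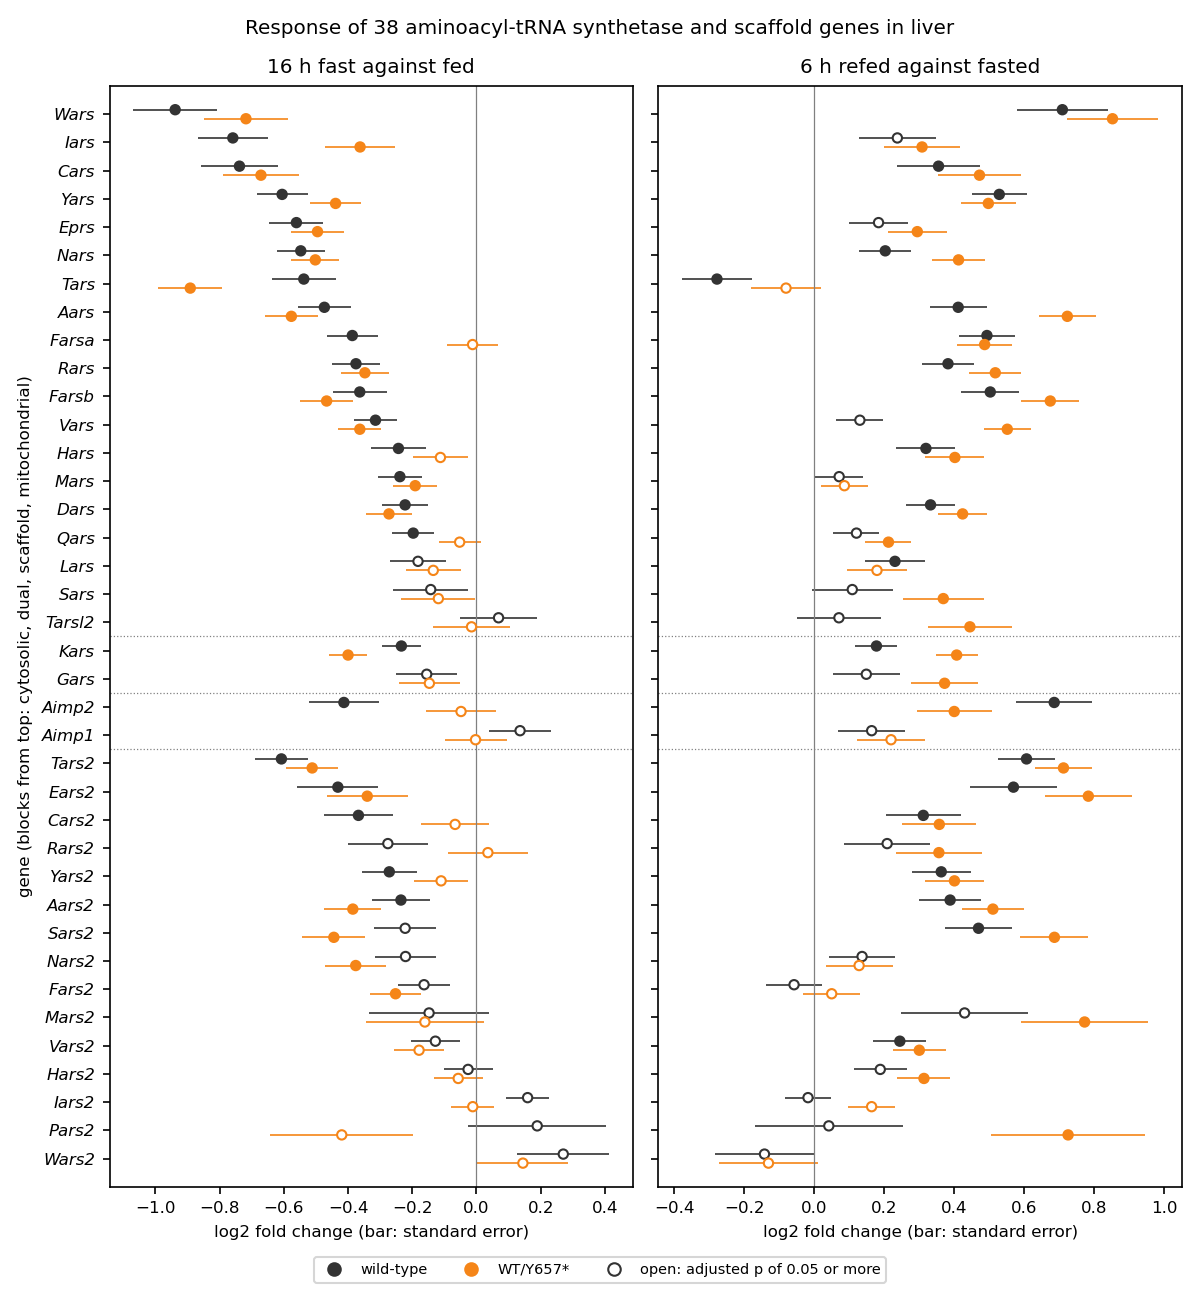
Log2 fold changes of 38 members (Lars2 and 1 other mitochondrial enzyme are not drawn) for the 16 h fast against fed (left) and for 6 h of refeeding against fasted (right), with bars for the standard error, black for wild-type and orange for WT/Y657* mice. Filled points passed an adjusted p of 0.05. In the left panel the filled points lie left of 0 and include 17 of 21 cytosolic and dual enzymes in wild-type mice, and in the right panel nearly all filled points lie right of 0, the exception being Tars in wild-type mice.

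In WT/Y657* liver the same fast lowered 21 of the 40 members and raised 0, against 17.7% of all genes tested lower and 15.2% higher. Of the cytosolic and dual enzymes 14 of 21 fell (median log2 fold change -0.36), and of the mitochondrial enzymes 7 of 17 fell (median -0.18, or -0.22 without Lars2). The genotypes share no mice, and 18 genes fell in both, which is 75% of the wild-type list and 85.7% of the WT/Y657* list. Sharing between genotypes over all genes tested was not computed, so these percentages have no background beside them. Aimp2, Cars2, Farsa, Hars, Qars and Yars2 passed the test only in wild-type mice, and Fars2, Nars2 and Sars2 only in WT/Y657* mice. Of these 9, the difference between genotypes passed its own test for Farsa alone, as given below.

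Tars (chromosome 15, 11382301 to 11399665) fell most in WT/Y657* mice, from a median of 221.3 CPM (188.6 to 256.1) to 120.7 (93 to 137.9). Its log2 fold change was -0.89 (SE 0.10, adjusted p = 5.7e-09 by edgeR), against -0.54 in wild-type mice. The difference of these responses did not pass the test (-0.35, SE 0.14, adjusted p = 0.145, edgeR). Aars (chromosome 8, 111033144 to 111057664) fell from a median of 287 CPM (235.1 to 308.9) to 192.2 (158.4 to 199.8), a log2 fold change of -0.58 (SE 0.082). Kars, the lysyl enzyme of both compartments (chromosome 8, 111993443 to 112011323), fell from 58.9 CPM (54.9 to 61.7) to 43.5 (42.2 to 46.6), a log2 fold change of -0.40 (SE 0.06). None of these groups overlapped, and for Wars, Yars, Nars and Tars2 the changes in WT/Y657* mice were -0.72, -0.44, -0.50 and -0.51.

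Markers of cell types also differed between feeding states. The summed endothelial markers (Stab2, Pecam1, Clec4g, Kdr, Lyve1) ranged from 208.4 to 284.5 CPM in fed and from 291.7 to 339.4 CPM in fasted wild-type mice, without overlap, and none of the 5 was at 0 in every mouse. The hepatocyte sum had a median of 70920 CPM in fed and 88080 CPM in fasted wild-type mice, with overlapping ranges. In WT/Y657* mice the endothelial sum ranged from 277.6 to 341.8 CPM fasted and from 230.5 to 257.6 CPM refed, again without overlap. Fed WT/Y657* mice, at 241.9 to 300.4 CPM, overlapped the fasted WT/Y657* mice. Refed wild-type mice, at 232.8 to 300.9 CPM, overlapped the fasted wild-type mice. The exocrine pancreas sum (Cela1, Cpa1, Prss1, Ctrb1, Pnlip) was 17.5 to 27 CPM in fed and 5.61 to 10.8 in fasted wild-type mice, and 7.6 to 20.1 and 4.23 to 7.44 in WT/Y657* mice, without overlap, but Cpa1, Prss1, Ctrb1 and Pnlip were at 0 in every fed mouse. The part of these markers in the synthetase changes was not tested. All comparisons with fed mice also differ in mouse number series.

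The cytosolic and mitochondrial enzymes for the same amino acid were set side by side in 17 pairs covering 15 amino acids, leaving out Lars with Lars2 and 1 further pair not reported here (the enzymes of both compartments and Qars have no such partner here). On fasting the cytosolic member had the lower log2 fold change in 14 of 17 pairs in wild-type mice, with a median difference of -0.22, and in 14 of 17 in WT/Y657* mice, with a median difference of -0.18. In wild-type mice the cytosolic member alone was called in 10 pairs, the mitochondrial member alone in 1 and both in 5. Several mitochondrial partners, such as Pars2, Mars2 and Wars2, had low counts, at which a call is less likely. Counts of calls, here and above, thus do not compare the compartments at equal power. Wars and Wars2 were farthest apart (-0.94 and 0.27), and Iars and Iars2 were at -0.76 and 0.16. Of the 3 wild-type pairs that went the other way, Tarsl2 and Tars2 were farthest apart (0.07 and -0.61). Farsa and Farsb, which form 1 enzyme, share the partner Fars2, and Eprs, which charges both glutamate and proline, was paired with Ears2 and Pars2, so the pairs are not independent.

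**Figure D3:**
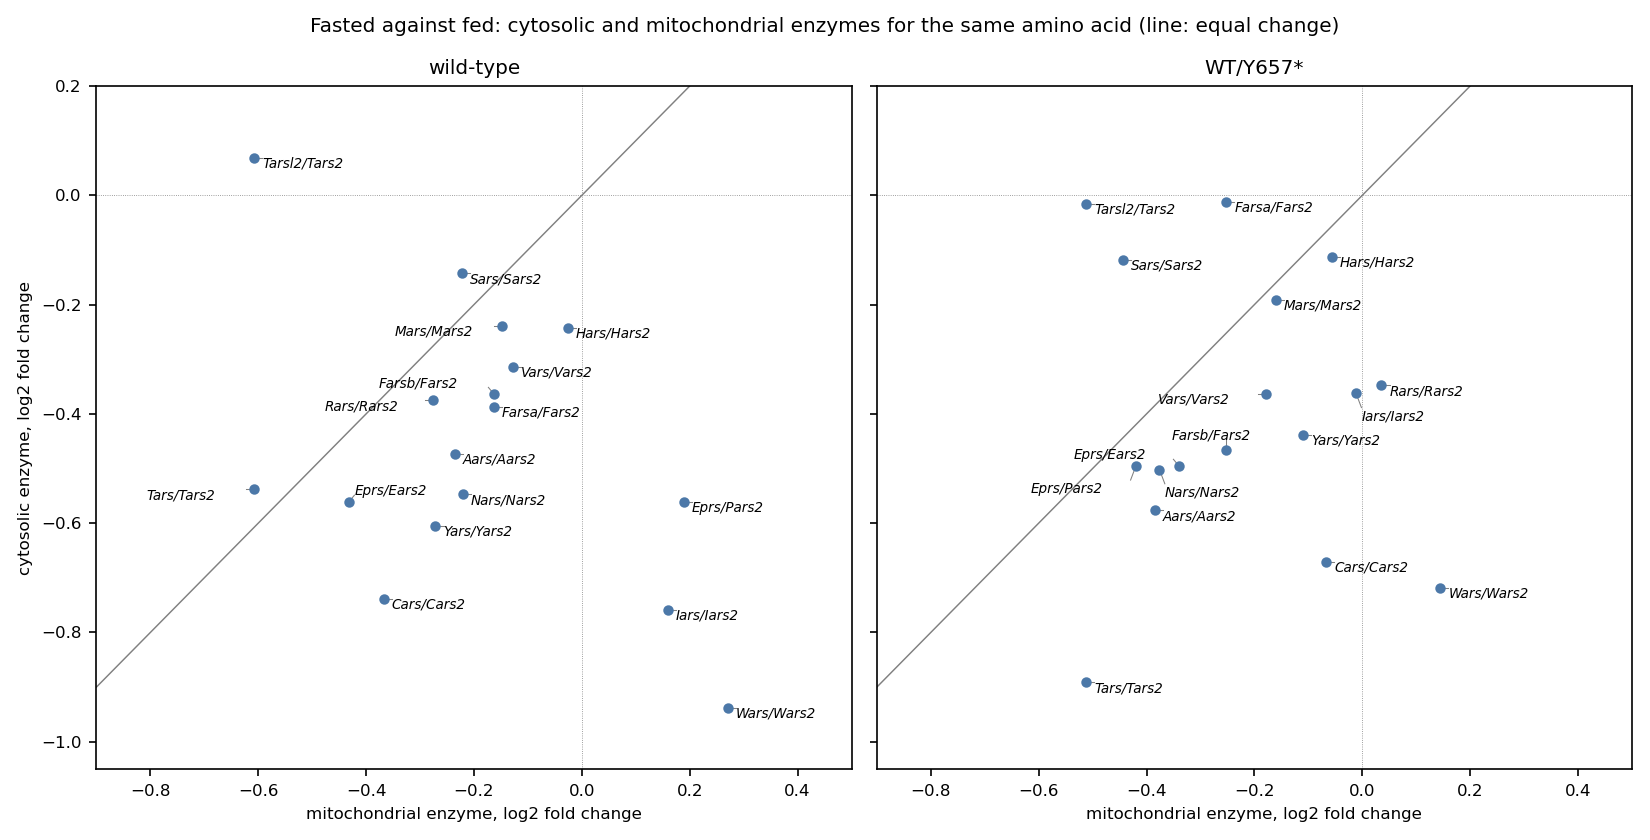
Log2 fold change on fasting of the cytosolic enzyme (vertical axis) against the mitochondrial enzyme for the same amino acid (horizontal axis) in wild-type (left) and WT/Y657* (right) mice, 1 point per pair. The diagonal marks equal change, and 14 of 17 pairs lie below it in each genotype.

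Refeeding for 6 h raised many synthetase transcripts in both genotypes. In wild-type mice 20 of 40 members rose against the fasted state and 1 fell, while 16.5% of all genes tested rose and 13.7% fell. Of the cytosolic and dual enzymes 12 of 21 rose (median log2 fold change 0.23), and of the mitochondrial enzymes 7 of 17 rose (median 0.24, or 0.23 without Lars2). In WT/Y657* mice 31 of 40 rose and 0 fell, against 17.1% higher and 14.2% lower of all genes tested. There 18 of 21 cytosolic and dual enzymes (median 0.41) and 12 of 17 mitochondrial enzymes (median 0.36, or 0.38 without Lars2) rose. The lists shared 19 genes, which is 95% of the wild-type list and 61.3% of the WT/Y657* list, again without a background over all genes. The 12 that passed the test in WT/Y657* mice alone included Eprs, Gars, Hars2, Iars, Mars2, Pars2, Qars, Rars2, Sars, Tarsl2 and Vars, and only for Vars did the difference between genotypes pass its own test. Fasting and refeeding are both measured against the same fasted mice, so their opposite signs are not independent.

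The scaffold gene Aimp2 (chromosome 5, 143902704 to 143909847) rose in wild-type mice from a median of 6.76 CPM to 10.4 (10.2 to 11.3) with no overlap, a log2 fold change of 0.69 (SE 0.11, adjusted p = 6.1e-06 by edgeR). Tars2 rose from 20.2 to 31.1 CPM (28.4 to 36.4), a log2 fold change of 0.61 (SE 0.082). Farsa, the alpha subunit of the phenylalanyl enzyme, rose from 17.3 CPM (15.6 to 18.2) to 23.9 (22.2 to 25.8), a log2 fold change of 0.49 (SE 0.08). Yars rose by 0.53 and Wars by 0.71 on the log2 scale.

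In WT/Y657* mice the smallest p was that of Aars, which rose from 192.2 CPM to 303 (271.8 to 354.8), a log2 fold change of 0.72 (SE 0.082, adjusted p = 1.1e-08, edgeR). Tars2 rose by 0.71 and Farsb, the beta subunit of the phenylalanyl enzyme, by 0.68 on the log2 scale. Vars, the cytosolic valyl enzyme (chromosome 17, 35000987 to 35016322), rose from 33 CPM (30.3 to 36.2) to 47.6 (44 to 53.3), a log2 fold change of 0.55 (SE 0.067, adjusted p = 5.3e-08, edgeR). In each of these the refed and fasted mice did not overlap.

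Tars went against the other cytosolic enzymes on refeeding. In wild-type mice it fell further, from a median of 118.8 CPM (107.5 to 143.4) to 104.6 (74.4 to 123.9), a log2 fold change of -0.28 (SE 0.099, adjusted p = 0.0302, edgeR), with overlapping groups. In WT/Y657* mice it was at 120.7 CPM fasted and 115 refed (100 to 122.8), a log2 fold change of -0.08 (adjusted p = 0.572). Tars2 and Tarsl2, the other threonyl enzymes, had positive log2 fold changes on refeeding in both genotypes, although Tarsl2 passed the test only in WT/Y657* mice (0.45, adjusted p = 0.00379, against 0.07 and 0.699).

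**Figure D4:**
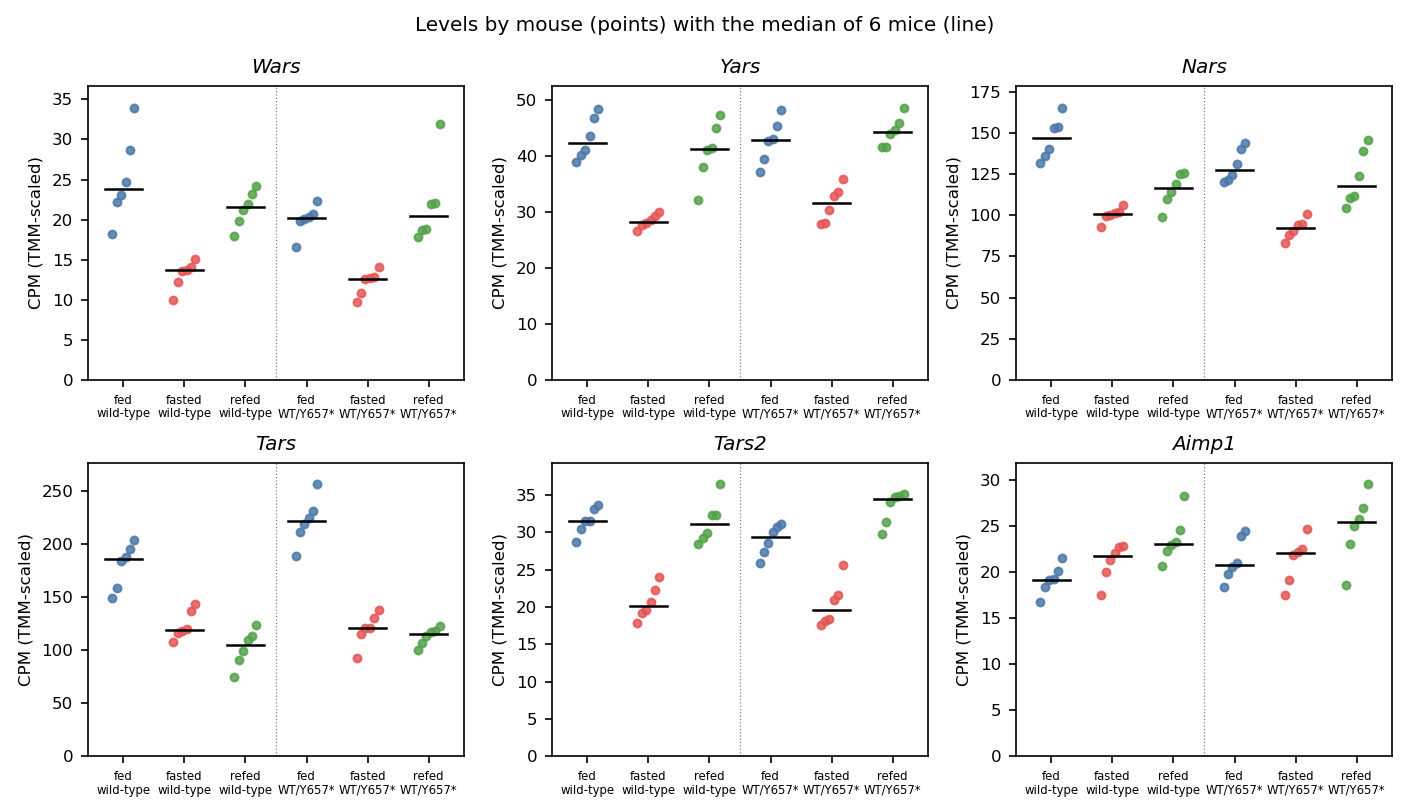
Levels of Wars, Yars, Nars, Tars, Tars2 and Aimp1 in each mouse (CPM after TMM scaling, axes from 0), with blue for fed, red for fasted and green for refed mice and a line at the median of 6. Wars, Yars, Nars and Tars2 dip in the fasted groups. Tars is at 185.7 CPM (median) in fed wild-type mice and stays low when refed, at 104.6.

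Compared with fed mice, refed wild-type livers had 2 members higher (Aimp1 and Sars2, 5%) and 7 lower (17.5%). Of all genes tested 13.2% were higher and 14.3% lower, so the 7 are close to the background and the 2 are below it. The 7 were Tars, Eprs, Nars, Iars, Cars, Vars and Fars2. Tars had a log2 fold change of -0.82 (SE 0.10, adjusted p = 1.6e-07), and every refed mouse (at most 123.9 CPM) lay below every fed mouse (at least 149.2 CPM). Iars (chromosome 13, 49682100 to 49734267) went from 49.8 CPM (44.9 to 55.7) in fed to 34.9 (27.8 to 39.7) in refed mice, a log2 fold change of -0.52 (SE 0.11). Eprs (chromosome 1, 185363044 to 185428360) went from 236.8 CPM (222.1 to 261.2) to 184.2 (169.6 to 203.5), a log2 fold change of -0.38, and Nars had -0.34. None of these 4 genes' groups overlapped.

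In refed WT/Y657* mice 11 members (27.5%) were higher than in fed mice and 2 (5%) lower, against 13% and 13.1% of all genes tested. Tars was again lower (log2 fold change -0.97, SE 0.10, adjusted p = 3.2e-09, edgeR), and Nars2, the mitochondrial asparaginyl enzyme, was lower as well (-0.25). Of the 11 that were higher, 6 were mitochondrial, among them Ears2, the glutamyl enzyme, at 15.9 CPM (11.9 to 16.7) fed and 21 (17.2 to 22.7) refed, a log2 fold change of 0.44 (SE 0.12). Farsa went from 18.7 CPM (16.9 to 20) to 25 (22.3 to 30.7), a log2 fold change of 0.48, and Tarsl2 from 14.9 CPM (14.4 to 16) to 19.1 (16.5 to 27.7), 0.43. The count of members that differed rose to 21 when libraries were scaled by total counts alone.

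Genotype changed few members at a given feeding state. In fed mice 0 of 40 members were called by edgeR between WT/Y657* and wild-type mice, against 2.37% of all genes tested, and 9 had an unadjusted p under 0.05 (22.5% of members and 17.4% of all genes tested). DESeq2 called 2, Aars (-0.24 by edgeR) and Farsa (-0.26), and leaving out 1 of the fed WT/Y657* mice gave 3 calls in edgeR. In refed mice 0 members were called, against 0.0287% of all genes, and 4 had an unadjusted p under 0.05, while DESeq2 called 0. Vars had the smallest p there (log2 fold change 0.26, SE 0.067, adjusted p = 0.197, edgeR), and its refed groups did not overlap (37.2 to 43.3 CPM in wild-type mice, 44 to 53.3 CPM in WT/Y657* mice).

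In fasted mice 4 members were lower in WT/Y657* than in wild-type mice and 0 were higher. Of all genes tested 13.1% were called in this comparison and 6.63% were lower, so the 10% of members that were lower is close to the background. They included Aars and the mitochondrial prolyl and seryl enzymes Pars2 and Sars2. Aars was at 238.2 CPM (207.3 to 266.3) in wild-type and 192.2 (158.4 to 199.8) in WT/Y657* mice, without overlap, a log2 fold change of -0.35 (SE 0.081, adjusted p = 0.00392 by edgeR).

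Pars2 (chromosome 4, 106651069 to 106655282) was at 3.42 CPM (2.46 to 4.21) in fasted wild-type and 2.04 (0.837 to 3) in fasted WT/Y657* mice, a log2 fold change of -0.72 (SE 0.22, adjusted p = 0.0267, edgeR). Sars2 (chromosome 7, 28741992 to 28753871) was at 8.36 CPM (7.66 to 8.46) and 6.43 (5.99 to 7.87), a log2 fold change of -0.29 (SE 0.099, adjusted p = 0.044, edgeR). Both pass the threshold narrowly, and without the libraries that list mt-Rnr2 at 0 their adjusted p was 0.148 and 0.0808, leaving 2 calls. Within the lower and the higher mouse number series (3 mice of each genotype) the mean differences in log2 CPM were -0.46 and -0.24 for Aars, -0.69 and -0.91 for Pars2, and -0.28 and -0.32 for Sars2. All 3 were thus lower in WT/Y657* mice in each series. In fed and in refed mice edgeR called none of the 3 between genotypes, while DESeq2 called Aars in fed mice, as given above.

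**Figure D5:**
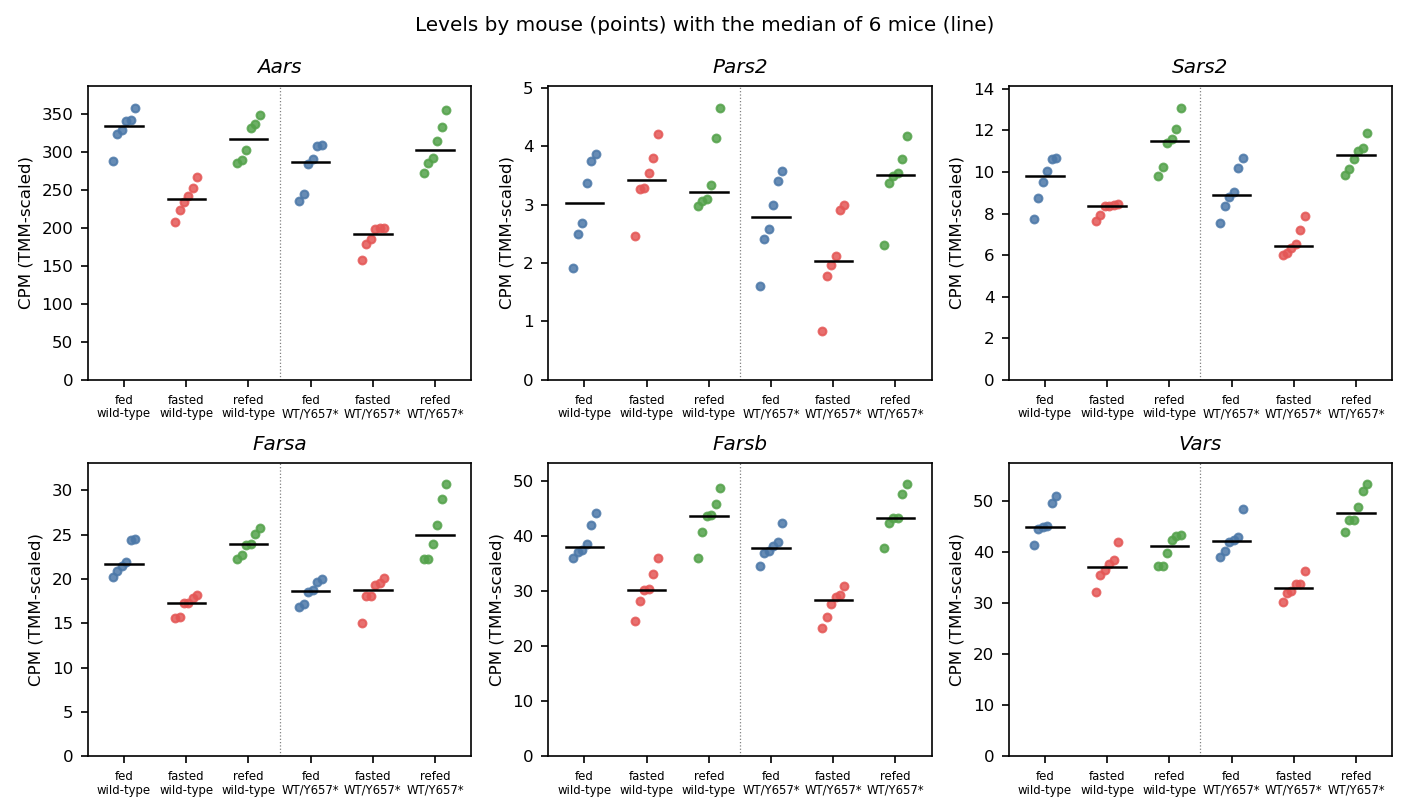
Levels of Aars, Pars2, Sars2, Farsa, Farsb and Vars in each mouse (CPM after TMM scaling, axes from 0), coloured as above by feeding state, with a line at the median of 6 mice. Fasted WT/Y657* mice lie below fasted wild-type mice in Aars without overlap, Farsa shows no dip on fasting in WT/Y657* mice (18.7 CPM fed and fasted), and Vars is highest in refed WT/Y657* mice.

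The test of a difference in response between genotypes was passed by 2 members, 1 for fasting and 1 for refeeding. For fasting, fewer members than genes in general passed the test of the difference (2.5% against 4.35%), that is, 1 of 40. This was Farsa (chromosome 8, 84856989 to 84869257), which fell in wild-type mice from 21.6 CPM (20.3 to 24.5) to 17.3 (log2 fold change -0.39) and was at 18.7 CPM both in fed (16.9 to 20) and in fasted (15.1 to 20) WT/Y657* mice (-0.01). The difference was 0.37 (SE 0.11, adjusted p = 0.0489, edgeR). In the fed state the Farsa groups did not overlap, WT/Y657* being lower, and in the fasted state they did. The call was lost in 25 of 33 alternatives, among them 19 of the 24 that left out a mouse, and Farsb, the other subunit, fell in both genotypes (-0.36 and -0.47).

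For refeeding, 1 of 40 members (2.5%) passed the test of the difference, against 2.06% of all genes, so the count is close to the background. Vars rose by 0.55 in WT/Y657* mice and had a log2 fold change of 0.13 in wild-type mice (adjusted p = 0.144), a difference of 0.42 (SE 0.095, adjusted p = 0.0147, edgeR). Without the libraries that list mt-Rnr2 at 0 the difference was 0.44 with an adjusted p of 0.0965. Within the lower and higher mouse number series the wild-type change was -0.02 and 0.28, and the WT/Y657* change was 0.53 and 0.57. The refeeding difference was positive for 34 of 40 members, with a median of 0.12 (0.02 over all genes tested). The share of positive values over all genes was not computed, so the 34 have no background beside them. These 34 rest on the same 24 mice and are not independent.

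Genes that work with the synthetases changed in part with them. The 17 listed partners of tRNA charging include elongation factors, their exchange factor subunits, the mitochondrial glutamyl amidotransferase, editing enzymes and peptidyl-tRNA hydrolases. Of these 17 partners, 7 fell and 0 rose on fasting in wild-type mice, and 5 fell and 2 rose in WT/Y657* mice. The 7 and 5 are 41.2% and 29.4% of the list, against 17.5% and 17.7% of all genes tested. Their medians were -0.20 and -0.13 on the log2 scale. Eef1g, a subunit of the cytosolic elongation factor complex, fell in wild-type mice (-0.37, adjusted p = 1.5e-05, edgeR). Tufm, the mitochondrial elongation factor Tu (-0.39), and Tsfm, its exchange factor (-0.43), fell there as well. Eef1a1, the cytosolic factor that carries charged tRNA, was at -0.002 in both genotypes. On refeeding 8 of the 17 partners rose in wild-type mice (47.1%, against 16.5% of all genes). In WT/Y657* mice 6 did so (35.3%, against 17.1%), with Tsfm at 0.55 and 0.78.

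Eef1b2, another subunit of the elongation factor complex, departed from this by genotype. It was at 110.2 CPM (105 to 125.8) in fasted wild-type and 161.4 CPM (128.6 to 183.8) in fasted WT/Y657* mice, without overlap, a log2 fold change of 0.48 (SE 0.083, adjusted p = 0.00017, edgeR). The difference of its fasting response between genotypes was 0.50 (SE 0.12, adjusted p = 0.0113, edgeR), and that of its refeeding response was -0.45 (adjusted p = 0.0339). Fed mice had medians of 132 and 130.5 CPM.

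The listed genes of the ATF4 and amino acid response were called in both directions. Of the 27 of 30 that could be tested, 6 rose and 5 fell on fasting in wild-type mice (22.2% and 18.5%, against 14.5% and 17.5% of all genes tested), and 4 rose and 2 fell in WT/Y657* mice (14.8% and 7.41%, against 15.2% and 17.7%). Their median log2 fold changes were -0.10 and 0.14, where the 40 members had -0.24 and -0.26. On refeeding 3 rose and 5 fell in wild-type mice, and 6 rose and 4 fell in the mutants, shares of 11.1% and 18.5%, and of 22.2% and 14.8%. The shares of all genes were 16.5% and 13.7%, and 17.1% and 14.2%, so these counts are close to the background. On fasting Atf5, a related transcription factor, rose in both genotypes (1.31 and 1.01 on the log2 scale). Shmt2, the mitochondrial serine hydroxymethyltransferase, fell on fasting in WT/Y657* mice (-0.55). It was also lower in fasted WT/Y657* than in fasted wild-type mice (-0.49, adjusted p = 0.00182, edgeR). Atf4 itself was at medians of 79 CPM fed and 76.1 fasted in wild-type mice, and it rose on refeeding in both genotypes. In wild-type mice it reached 95.2 CPM (82.2 to 144.1), a log2 fold change of 0.38 (SE 0.11, adjusted p = 0.00968, edgeR), and in WT/Y657* mice it went from 68.8 CPM (60.1 to 86.3) to 109 (95.4 to 136.9), a log2 fold change of 0.66 (SE 0.12). The difference between genotypes did not pass the test (0.28, SE 0.16, adjusted p = 0.433, edgeR).

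Asns, the asparagine synthetase and a well-known ATF4 target, varied widely between mice. It ranged from 0.215 to 1.77 CPM in fasted wild-type and from 1.17 to 27.3 CPM in fasted WT/Y657* mice, the groups overlapping. Between these groups its log2 fold change was 2.95 (SE 0.96, adjusted p = 0.0396, edgeR), and the genotype difference of its fasting response did not pass the test (2.15, SE 1.25, adjusted p = 0.355). Trib3, on the same list, went the other way. Its median was 11.5 CPM (6.87 to 20.2) in fasted wild-type and 5.53 (2.42 to 8.37) in fasted WT/Y657* mice, the groups overlapping. In this comparison 4 of the 27 listed genes were higher and 1 lower (14.8% and 3.7%), while 13.1% of all genes were called in either direction. Ddit3, whose exons overlap those of Mars on the other strand, was higher in refed WT/Y657* than refed wild-type mice (log2 fold change 1.37, SE 0.24, adjusted p = 0.0171, edgeR), at 11.3 CPM (7.22 to 30.2) against 6.01 (5.31 to 8.54). Mars, the methionyl enzyme, had a log2 fold change of -0.01 there. Slc7a11, a cystine transporter, had a refeeding response that differed between genotypes (-1.29, SE 0.35, adjusted p = 0.0425, edgeR). In all, 16 members share at least 50 exonic bases with a neighbouring gene, and use of strand in counting was not stated. Aars with Exosc6 and Tarsl2 with Tm2d3 overlap on the same strand, where strand cannot separate the reads. The part of these overlaps in the counts was not tested.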

How the data were processed

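Liver RNA (TruSeq Stranded total RNA libraries, single-end reads) was measured in 36 mice. Estimated counts of 38283 genes in each library, not normalized, were deposited by the authors. Per the labels they used Cuffdiff, featureCounts, SAMtools and edgeR (versions not given in the sources used here). Their notes name mm9 as the build and speak of human genes, but 99.7% of the 36341 genes found in GENCODE M21 have deposited loci that overlap the GRCm38 gene, so GRCm38 coordinates are given. A deposited table of fitted group values was not used.

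Before testing, counts were rounded (3.64% of the non-zero values had decimals). Totals ranged from 8839488 to 19542775 counts (median 13596665.5), and mice of a group differed beyond sampling noise (chi-square of at least 7.00 per degree of freedom in each of 90 pairs). In R 4.3.3, edgeR 4.0.16 was used with filterByExpr over the 6 groups (13945 genes, all 40 members), TMM scaling (factors 0.914 to 1.09) and a robust quasi-likelihood fit with 1 coefficient per group over all libraries (common biological coefficient of variation 0.181). Contrasts were tested two-sided by glmQLFTest, with Benjamini-Hochberg adjustment over all genes tested and a threshold of 0.05. "Rose", "fell" and "called" refer to this threshold. Standard errors were derived from the fold change and the F statistic. The whole-table fit was tested on simulated counts: of 197 changed genes, 62.4% were recovered (77.6% of those changed by 1 on the log2 scale, 47.5% of those changed less), and 9 of 132 calls were false, in the comparison of fasted with fed wild-type mice over 13796 genes. Only these 197 of the 13796 genes were changed in the simulation, whereas 17.5% of genes tested fell and 14.5% rose in the data. The adjustment depends on how many genes change, so these rates may not carry over. Single members with small changes may still be missed. RefSeq promoters and GENCODE M21 exon lengths were used for motifs and levels per kilobase.

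The members and lists were chosen with earlier results of these data known. Members were named by rule: up to 4 called members with the smallest p per contrast, all members called between genotypes, the scaffold genes, the highest and lowest levels, pairs for 1 amino acid, and the 3 genes of each companion list with the smallest p per contrast. Others were named in short lists after their values were seen. For 1 member that the counts include, and for 1 promoter match, single results are not reported here. Alternatives were DESeq2 size factors, total counts alone, no filter, at least 10 counts in every library, edgeR's likelihood ratio test, DESeq2 1.42.0, only the groups compared, mouse number series as a covariate, and leaving out each mouse. Leaving out Lars2 with the 2 genes sharing its sequence, and leaving out the 5 libraries with mt-Rnr2 at 0, were added after the data were seen.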

Additional observations from a re-analysis of the deposited data

Results flagged for a closer look

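The spread within groups was examined for 20 named members in 6 groups each, 120 groups in all. Of these, 5 had a mouse standing apart from the other 5. Chance alone gives about 1 in 20 where values spread normally, so 5 of 120 is not above chance. In refed WT/Y657* mice 1 mouse had Wars at 31.96 CPM, the others being between 17.86 and 22.02. In fed WT/Y657* mice 1 mouse had Eprs at 178.7 CPM, the others being between 213.8 and 227.9. The other 3 concern Lars2: 1 fasted wild-type mouse had 46490 CPM (others 5676 to 19970), 1 fasted WT/Y657* mouse had 46580 CPM (others 4622 to 11290), and 1 refed wild-type mouse had 48260 CPM (others 11530 to 23700). The last 2 of these are also among the libraries that list mt-Rnr2 at 0.

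Farsa had a fasting response that differed between genotypes by 0.3746 on the log2 scale (adjusted p = 0.04894), and Vars had a refeeding response that differed by 0.4216 (adjusted p = 0.01467), both by edgeR's quasi-likelihood test of the difference itself.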

How the results depend on the processing

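Of 29 named fold changes, 25 kept their direction and their side of the threshold under all alternatives run, and none changed direction. The counts of members called on fasting and refeeding in either genotype, and between refed and fed wild-type mice, stayed within 1.5 times of the values given. Between refed and fed WT/Y657* mice the 13 calls became 21 with total counts alone (11 to 16 with a mouse left out). Between genotypes in fed mice the 0 calls became 1 with total counts alone and 2 with DESeq2, and ranged from 0 to 3 with a mouse left out (always without a WT/Y657* mouse where calls appeared). In fasted mice the 4 calls became 2 when only the groups compared were fitted and 2 without the libraries with mt-Rnr2 at 0, and ranged from 2 to 4 with a mouse left out (2 without 1 wild-type mouse and without either of 2 WT/Y657* mice). Sars2 lost its call in 15 of 22 alternatives and Pars2 in 8 of 22. The single fasting difference, Farsa, was lost (0 calls) with DESeq2 size factors, total counts alone, no filter, the likelihood ratio test, only the groups compared and without the libraries with mt-Rnr2 at 0, and ranged from 0 to 1 with a mouse left out, 25 of 33 alternatives in all, of which 19 left out a single mouse. In the settings that lost it, the adjusted p reached 0.181. The refeeding difference of Vars became 0 calls without the libraries with mt-Rnr2 at 0. The causes were not tested. No paired analysis was possible because the groups share no replicate numbers. Members at low counts, such as Pars2 and Mars2, had larger standard errors than the median member.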
